A study of Caenorhabditis elegans with 4 samples.

Results

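H3K4me3 peaks on chromosome V of Caenorhabditis elegans, the longest of the 6 chromosomes, were described here. All peaks that the deposited lists place on chromosome V were taken, which gave 515 of the 3811 peaks of replicate 1 and 469 of the 3487 peaks of replicate 2. Both libraries came from N2 (wild-type) embryos of mixed stages, crosslinked with formaldehyde and precipitated with the same Wako antibody against H3K4me3, and each was paired in the labels with an input library of its own. No treatment, mutation or second stage was compared, and whole embryos were used, so each list sums over many cell types. The study set H3K4me3 beside the regions bound by LEM-2, to ask how marks of transcription lie relative to the nuclear membrane. The labels name different versions of the extraction protocol for the libraries, with the same text, and the second library was sequenced less deeply. The lists themselves hold no read counts. Intervals given with counts and shares are exact 95% intervals, and they cover counting error only. Because peaks cluster along the chromosome, these intervals are too narrow. With 2 libraries of a single group no test between groups was possible, and the smallest p that flipping signs over 2 replicates can give is 0.5, so no p-values are given.

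H3K4me3, histone H3 trimethylated at lysine 4, is a mark of nucleosomes around the start sites of active genes in most eukaryotes, C. elegans included. A ChIP-seq peak of this mark is therefore usually read as the 5′ region of a gene, or of neighbouring genes, in use in some of the cells. LEM-2 is a protein of the inner nuclear membrane, and the DNA it precipitates lies mainly on the outer parts of the autosomes, called arms although worm chromosomes have no single centromere. Within the arms the study drew LEM-2 subdomains, stretches of continuous binding, and the gaps between them, which it sorted by size into small, medium, large and extra large. Chromosome V carries the greatest part of the large families of chemoreceptor genes of the worm, many of which are used in few neurons. Positions are given as in the lists and are read as ce4, the build of the study's subdomains. The lists name no build.

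Chromosome V had the lowest peak density of the 6 chromosomes in each replicate. Replicate 1 had 24.6 peaks per Mb (22.5 to 26.8) and replicate 2 had 22.4 peaks per Mb (20.4 to 24.5), with a mean of 23.5 ± 1.55 (SD, n = 2). Chromosome IV was next, with 33.6 peaks per Mb in replicate 1 and 30.6 in replicate 2. The densest was chromosome III, with 50.6 and 46.0 peaks per Mb. The gap between chromosomes V and IV exceeded the difference between replicates, and the intervals of these chromosomes did not overlap within either list. Relative to the other 4 autosomes together, the density on chromosome V was 0.570 (0.518 to 0.627) in replicate 1 and 0.565 (0.511 to 0.624) in replicate 2, so the replicates differed by far less than this interval. Chromosome V held 20.9% of the bases of the 6 chromosomes and 13.5% of the peaks of replicate 1 and 13.4% of those of replicate 2.

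**Figure D1:**
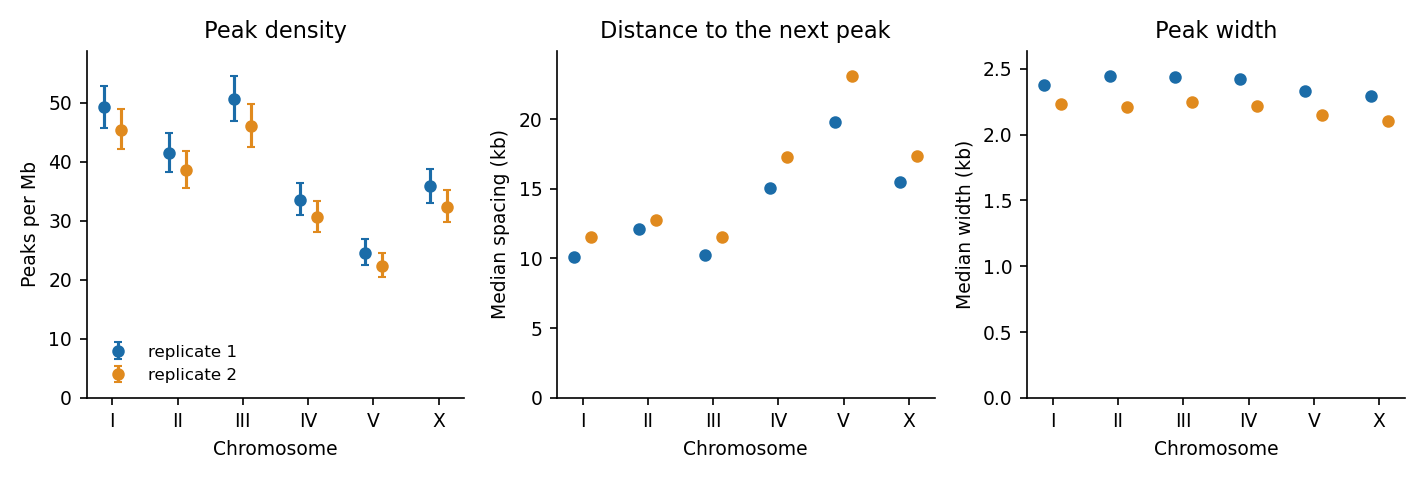
Peaks per Mb (left, bars are exact 95% Poisson intervals), median distance to the next peak in kb (middle) and median peak width in kb (right) for each chromosome, with replicate 1 in blue and replicate 2 in orange. Chromosome V lies lowest in density, at 24.6 and 22.4 peaks per Mb, and highest in spacing, while its median width lies within the range of the others.

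The peaks were slightly narrower than on the other autosomes and were set farther apart. The median width was 2335 bp in replicate 1 and 2151 bp in replicate 2 (2243 ± 130, SD, n = 2), against 2421 and 2227 bp on the other autosomes. The middle 50% of widths ran from 1842.5 to 3140.5 bp in replicate 1. Within a list, the median on chromosome V was 86 bp (replicate 1) and 76 bp (replicate 2) narrower than on the other autosomes, and it was below that of each of them and above that of the X chromosome in both lists. Peaks of 5 kb or more made up 9.90% of the list (51 peaks) in replicate 1 and 5.33% (25 peaks) in replicate 2, against 9.77% and 5.11% on the other autosomes. With a similar width and fewer peaks, 7.27% and 5.84% of the bases of chromosome V lay inside a peak, compared with 12.9% and 10.4% on the other autosomes.

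The median distance from the end of a peak to the start of the next was 19812.5 bp in replicate 1 and 23052.5 bp in replicate 2. On the other autosomes it was 11240 and 12896 bp. Long stretches without a peak accounted for much of the chromosome. Distances of 100 kb or more held 36.9% of the bases of chromosome V in replicate 1 and 40.1% in replicate 2, compared with 11.6% and 13.5% on the other autosomes. There were 41 and 44 such stretches on chromosome V, and 47 and 56 on the other 4 autosomes together. Of the latter, 20 and 23 lay on chromosome IV, where they held 20.1% and 22.8% of the bases. The longest on chromosome IV was 518711 bp in replicate 1, against 547364 bp on chromosome V. Close neighbours, less than 1 kb apart, made up 2.72% of the distances in replicate 1 and 5.34% in replicate 2, where the other autosomes had 7.60% and 7.30%.

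The number of protein-coding genes did not follow the number of peaks. RefSeq's gene table for assembly WBcel235, used here for counts per chromosome only, lists 4995 protein-coding genes on chromosome V, more than on any other chromosome. This gave 10.3 peaks per 100 listed genes in replicate 1 and 9.39 in replicate 2, whereas the other chromosomes had 17.9 to 26.4 and 16.3 to 24.0. Of the 1308 genes with names of the chemoreceptor type in that table, 888 (67.9%) are on chromosome V. Without such names chromosome V had 12.5 and 11.4 peaks per 100 genes, the lowest value of the 6, next to 18.8 and 17.1 on chromosome IV. Which genes lie under the peaks was not analysed here. Whether the chemoreceptor genes bear on the low number of peaks was not tested.

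Along chromosome V the peaks were densest in the centre and sparsest in the right arm. The left arm, from 1 to 8170000, held 175 peaks in replicate 1 and 166 in replicate 2, or 21.4 and 20.3 peaks per Mb. The centre, from 8170001 to 13830000, held 217 and 191 peaks, or 38.3 and 33.7 per Mb. The right arm, from 13830001 to 20919398, held 123 and 112 peaks, or 17.3 and 15.8 per Mb. The centre was therefore 1.96 times as dense as the arms in replicate 1 (1.64 to 2.35) and 1.85 times in replicate 2 (1.53 to 2.23), with a mean of 1.91 ± 0.0784 (SD, n = 2). The corresponding ratios were 1.55 to 1.69 on the other autosomes in replicate 1 and 1.47 to 1.71 in replicate 2, and their intervals overlapped that of chromosome V. On the X chromosome, where LEM-2 binds mainly at the left end, the ratio was 1.21 and 1.14. The left arm was 1.23 times as dense as the right arm in replicate 1 (0.975 to 1.57), an interval that includes equal densities, and 1.29 times in replicate 2 (1.01 to 1.65).

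The low density of chromosome V was present in the arms and in the centre. Arm density was 0.565 of that of the other autosomes' arms in replicate 1 (0.497 to 0.642) and 0.570 in replicate 2 (0.498 to 0.650). Centre density was 0.671 (0.579 to 0.775) and 0.648 (0.553 to 0.755) of that of the other autosomes' centres. Some single parts came close to those of chromosome V. The right arm of chromosome IV had 23.9 and 21.5 peaks per Mb, and its intervals overlapped those of both arms of chromosome V. The centres of X (38.1 and 33.8) and IV (46.3 and 41.1) had intervals that overlapped that of the centre of chromosome V. Peaks in the 3 parts of chromosome V had similar widths, with medians of 2313 bp in the left arm, 2384 bp in the centre and 2292 bp in the right arm in replicate 1. The right arm had fewer peaks, but 43.1% of them in replicate 1 reached a score of 3100, the value at which the authors' scores pile up, compared with 26.3% in the centre and 33.1% in the left arm. In replicate 2, 8.93% of right-arm peaks, 3.66% of centre peaks and 7.83% of left-arm peaks did so.

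In windows of 1 Mb counted from the left end, replicate 1 had between 7 and 44 peaks in the 20 full windows, with a median of 24.5. The densest windows were 13 to 14 Mb with 44 peaks in replicate 1 and 34 in replicate 2, 11 to 12 Mb with 40 and 41, and 12 to 13 Mb with 39 and 32. The sparsest were 17 to 18 Mb with 7 peaks in each replicate, 16 to 17 Mb with 8 in each, and 3 to 4 Mb with 10 in each. All of the dense windows thus touched the centre, and the sparse windows lay within the arms rather than at the chromosome ends. The last, partial window of the right end held 25 peaks in replicate 1 and 24 in replicate 2, more than the 17 and 14 of its inner neighbour, although 99.8% of its bases lay in a LEM-2 subdomain. Of the full windows of chromosome V, 9 of 20 (45%) held fewer than 20 peaks of replicate 1. On chromosome IV 2 of 17 did, and on each of the other 4 chromosomes 0 did.

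**Figure D2:**
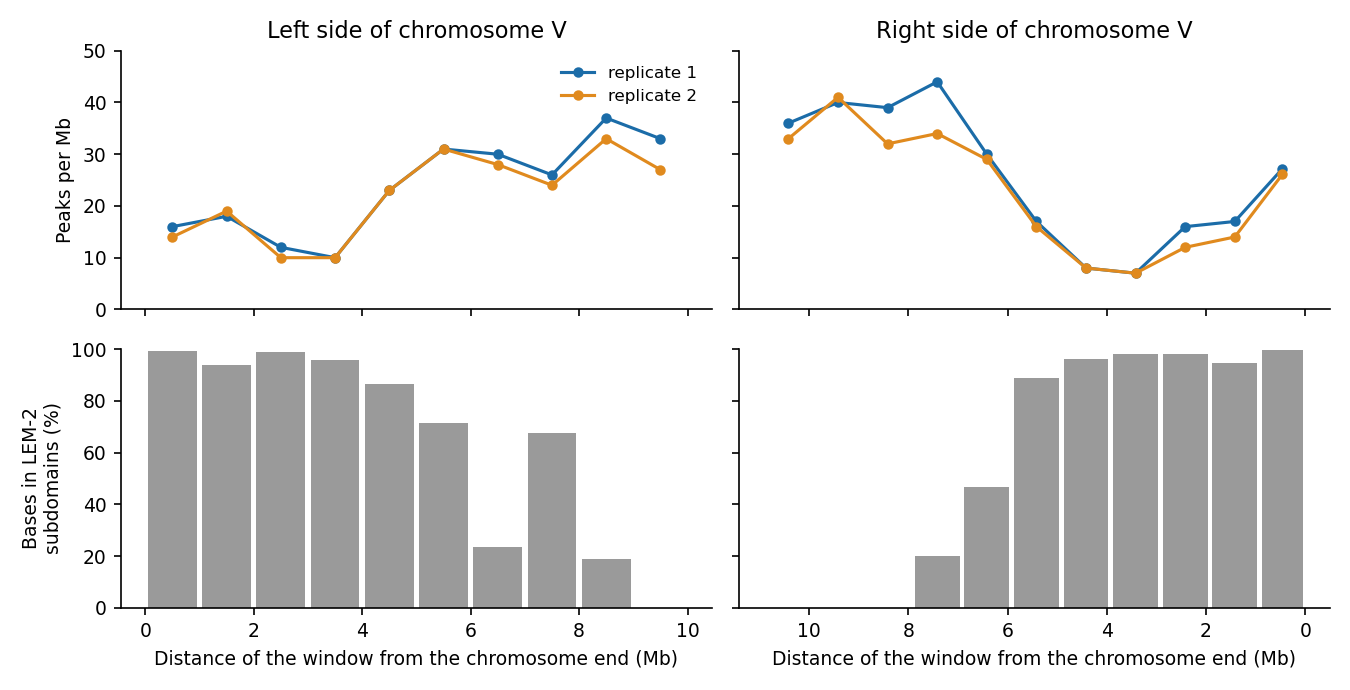
Peaks per Mb in windows of 1 Mb of chromosome V (top, replicate 1 in blue and replicate 2 in orange) and the percentage of bases of each window inside LEM-2 subdomains (bottom), against the distance in Mb of the window's middle from the left end (left panels) or the right end (right panels). Both replicates fall to 10 peaks in the window 3 to 4 Mb from the left end and to 7 in the window from 17 to 18 Mb, and they rise again at the right end, where the subdomain share is 99.8%.

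The profiles of the replicates over the 20 full windows were alike, with a Pearson r of 0.973 and a Spearman rho of 0.982. Peak number fell where more of the window lay in LEM-2 subdomains, with r = −0.906 and rho = −0.917 over the same 20 windows in replicate 1. These values are descriptions, since neighbouring windows share subdomains and the library is the same. The right-end window, which is partial, is not among them.

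LEM-2 subdomains made up 61.7% of the bases of chromosome V and held a minor part of its peaks. The 93 subdomains held 147 of 515 peaks in replicate 1 (28.5%, 24.7 to 32.7) and 128 of 469 in replicate 2 (27.3%, 23.3 to 31.6), counted by the middle of the peak. On the other autosomes the subdomains held 35.7% and 35.3% of peaks, with 54.6% of bases. Singly, chromosomes II (31.5% and 32.0%) and IV (34.5% and 33.6%) had intervals that overlapped that of chromosome V. On X the subdomains held 7.56% and 8.01% of peaks, with 17.7% of bases. When peaks in the extra large gap of chromosome V were left out, 44.1% of its remaining replicate 1 peaks lay in subdomains. In the left arm 40% of replicate 1 peaks were in subdomains, which covered 78.8% of the arm, and in the right arm 61.0% were, where subdomains covered 88.5%. The centre had 2 such peaks in replicate 1 and 1 in replicate 2.

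Peak density was lowest in subdomains and highest in the smallest gaps. Subdomains had 11.4 peaks per Mb in replicate 1 and 9.92 in replicate 2. The extra large gap, which takes up most of the centre, had 38.4 and 33.5 peaks per Mb, and the 10 large gaps had 42.1 and 40.9. The 39 medium gaps had 64.3 and 63.6 peaks per Mb, and the 42 small gaps had 141 and 135. The intervals of the extra large and the large gaps overlapped in both replicates, and those of the large gaps, which reached 53.1 and 51.7 peaks per Mb, just overlapped those of the medium gaps, which began at 51.7 and 51.1. Overlap of separate intervals does not show that densities are alike, and the ratios between these neighbours in the order were not computed. The share of bases inside peaks gave the same order, with 2.91% in subdomains, 11.8% in the extra large gap, 14.6% in large gaps, 19.4% in medium gaps and 37.2% in small gaps in replicate 1. In replicate 2 these shares were 2.34%, 8.98%, 12.0%, 16.6% and 34.1%.

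Compared by class, chromosome V differed most from the other autosomes inside subdomains. Its subdomains had 0.404 of the peak density of the other autosomes' subdomains in replicate 1 (0.337 to 0.481) and 0.387 in replicate 2 (0.319 to 0.466). In the extra large gap the ratio was 0.660 (0.562 to 0.771) and 0.634 (0.534 to 0.749), and in large gaps it was 0.699 (0.524 to 0.924) and 0.687 (0.513 to 0.911). In medium gaps it was 0.869 (0.671 to 1.12) and 0.933 (0.717 to 1.21), and in small gaps 0.896 (0.535 to 1.46) and 0.815 (0.484 to 1.33). The intervals for medium and small gaps include equal densities. With only 25 and 24 peaks in the small gaps of chromosome V, a difference of the size seen in subdomains lies outside their intervals, but one of the size seen in large gaps does not. Single chromosomes varied. In replicate 1, subdomains had 26.7 to 35.9 peaks per Mb on chromosomes I to III, 19.2 on IV and 15.3 on X. The interval of X overlapped that of chromosome V in both replicates, and that of IV did not. In the extra large class, IV (47.3 and 41.0 peaks per Mb) and X (38.6 and 34.7) had intervals that overlapped that of chromosome V.

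**Figure D3:**
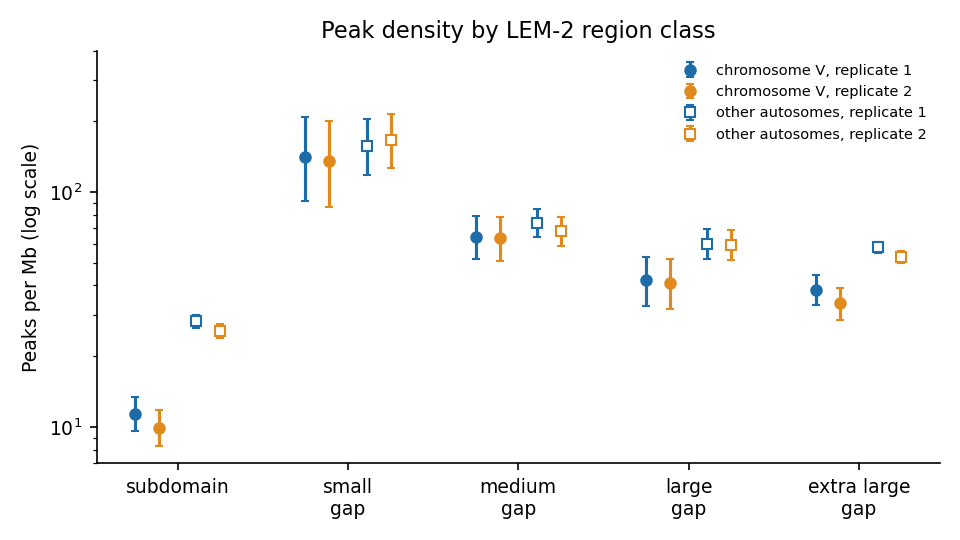
Peaks per Mb (log axis) in LEM-2 subdomains and in the 4 size classes of gaps. Filled circles are chromosome V and open squares are the other 4 autosomes together, with replicate 1 in blue and replicate 2 in orange, and bars are exact 95% Poisson intervals. Subdomains of chromosome V stand at 11.4 and 9.92 peaks per Mb against 28.2 and 25.6, while the intervals for small and medium gaps overlap those of the other autosomes.

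Outside the extra large gap, the gaps of chromosome V had 5.00 times the peak density of its subdomains in replicate 1 (4.01 to 6.25) and 5.62 times in replicate 2 (4.46 to 7.10), with a mean of 5.31 ± 0.438 (SD, n = 2). On the other autosomes together the ratio was 2.54 (2.27 to 2.85) and 2.71 (2.41 to 3.04), and single chromosomes had 2.31 to 3.41 in replicate 1 and 2.30 to 3.73 in replicate 2. The interval of chromosome V lay above that of the other autosomes together in each replicate. Among single chromosomes it overlapped that of chromosome IV in both replicates, which reached 4.16 and 4.59, that of X in replicate 1, which reached 4.16, and, barely, that of chromosome III in replicate 2, which reached 4.47. Small gaps were 2.19 times as dense as medium gaps in replicate 1 (1.35 to 3.45) and 2.13 times in replicate 2 (1.30 to 3.37), and the other autosomes had 2.13 and 2.44. The count of chromosome V was also set against a count expected for its own mix of region classes. If each class had held peaks at the density of the other autosomes, 873.0 peaks would have been counted in replicate 1 and 806.9 in replicate 2, so the observed 515 and 469 were 59.0% and 58.1% of these numbers. At the overall density of the other autosomes the figures were 903.2 and 829.6, of which the observed counts were 57.0% and 56.5%. These expected counts have no intervals, and what underlies the low count was not tested.

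Regions differed widely within a class. Of the 93 subdomains, 56 were touched by a peak in both replicates, 4 in replicate 1 only and 33 in neither. The longest subdomain untouched in both replicates spanned 129.6 kb, and each longer subdomain carried at least part of a replicate 1 peak. Of the 42 small gaps, 28 were touched in both replicates, 1 in replicate 1 only and 13 in neither. Of the 39 medium gaps, 36 were touched in both and 2 in neither, and all 10 large gaps were touched in both. A touch needs 1 bp, and 52 subdomains held the middle of a replicate 1 peak. In replicate 1, 64.5% of subdomains were touched, against 78.3% on the other autosomes, 71.6% on chromosome IV and 50.9% on X. For small gaps it was 69.0% against 76.7% on the other autosomes, and for medium gaps 94.9% against 94.2%.

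**Figure D4:**
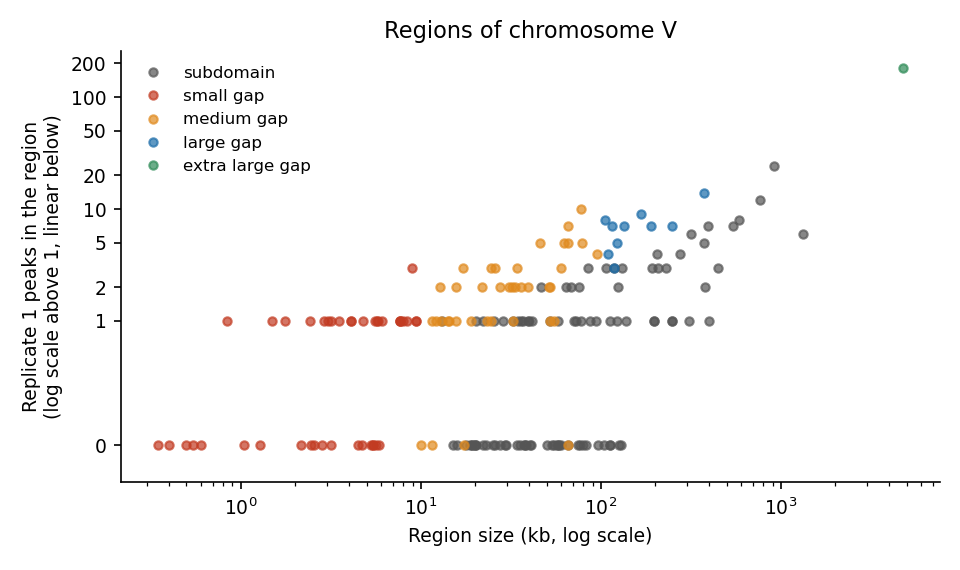
Number of replicate 1 peaks in each LEM-2 subdomain or gap of chromosome V (log scale above 1, linear below) against its size in kb (log scale), 1 point for each region, coloured by class. At a given size the gaps lie above most subdomains, and subdomains with 0 peak middles range up to about the size of the longest subdomain untouched in both replicates, 129.6 kb.

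The 10 large gaps held from 3 to 14 peaks each in replicate 1 and from 4 to 13 in replicate 2. The lowest density in replicate 1, 25.3 peaks per Mb, was in the gap from 8595702 to 8714501, with 3 peaks in replicate 1 and 4 in replicate 2. The highest, 75.9 per Mb, was in the gap from 13524452 to 13629800, the first gap to the right of the extra large gap, with 8 and 6 peaks. The gap from 6393052 to 6767055, the longest of the class at 374 kb, held 14 and 13 peaks. The gap from 14409502 to 14544350 was the most covered, with 22.7% of its bases inside peaks in replicate 1 and 20.8% in replicate 2. The remaining large gaps were those from 5939452 to 6054500 with 7 and 5 peaks, from 6095033 to 6284450 with 7 and 8, and from 7727652 to 7895500 with 9 and 9. They also included those from 8324302 to 8573624 with 7 and 7, from 13955102 to 14064408 with 4 and 4, and from 14730302 to 14854100 with 5 and 4. In no large gap did the replicates differ by more than 2 peaks. The extra large gap, from 8768352 to 13508500, held 182 and 159 peaks.

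Among the medium gaps the most peaks were in the gap from 7972402 to 8050500, with 10 in replicate 1 and 8 in replicate 2, or 128 and 102 peaks per Mb. Among the small gaps the most peaks were in the gap from 5267477 to 5276376. It held 3 peaks in each replicate, which covered 79.1% and 73.3% of its 8.9 kb. At the other extreme, the medium gaps from 6304675 to 6370800 and from 17726159 to 17737714 had no peak in either replicate. The first of these is 66.1 kb long and lies between 2 large gaps that both carry peaks. The longest small gaps without a peak were those from 2785560 to 2790958, from 3188902 to 3194179 and from 7436527 to 7441245.

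The 3 longest subdomains differed from each other by more than the replicates did. The longest, from 16402719 to 17726158 in the right arm, spans 1323 kb and had 6 peaks in each replicate, or 4.53 peaks per Mb. The subdomain from 20001851 to 20919338, at the right end, spans 917 kb and had 24 and 23 peaks, or 26.2 and 25.1 per Mb, a density close to the 28.2 and 25.6 of the subdomains on the other autosomes. The subdomain from 5893 to 773411, at the left end, spans 768 kb and had 12 and 11 peaks, or 15.6 and 14.3 per Mb.

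No difference in density with the length of the subdomain was resolved on chromosome V. Subdomains under 50 kb had 13.6 peaks per Mb in replicate 1 (7.42 to 22.8), those of 50 to 250 kb had 9.71 (7.13 to 12.9) and those of 250 kb or more had 12.2 (9.78 to 15.1), and these intervals overlapped. In replicate 2 the values were 11.6, 8.68 and 10.5. On the other autosomes density was higher in longer subdomains, with 16.8, 25.2 and 31.0 peaks per Mb in replicate 1 and 14.6, 22.9 and 28.2 in replicate 2. The shortest class of chromosome V thus had an interval that includes the value of the other autosomes, and the intervals of the longer classes did not. On chromosome V density was higher near the edges of subdomains in both lists. Within 5 kb of an edge there were 32.3 peaks per Mb in replicate 1 and 31.2 in replicate 2, from 30 and 29 peaks. Farther inside there were 9.77 and 8.26, from 117 and 99 peaks. No intervals were computed for these densities. The other autosomes had 46.2 and 43.9 near the edge and 27.0 and 24.4 farther inside.

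At the edges themselves peak coverage changed over a few kb. The study drew subdomains by joining windows in which most, but not all, positions had to have positive LEM-2 scores. Positions without such a score can therefore lie just inside an edge. Their effect on coverage at edges, on densities near edges and on small gaps was not tested. Gap sides of the 92 left edges of subdomains had 26.9% of bases inside peaks in replicate 1 and 24.8% in replicate 2. The 5 kb on the subdomain side had 11.7% and 10.1%. A gap side reached 5 kb from the edge, or to the end of the gap where the gap was shorter. For the 92 right edges the gap side had 23.9% and 21.9%, and the subdomain side had 6.12% and 4.32%. In replicate 1, 43 left edges had more coverage toward the gap, 17 had less and 32 had equal coverage. At right edges these numbers were 47, 9 and 36. In bins of 500 bp, replicate 1 coverage was 21.3% just outside the subdomain, 20.6% just inside it and 2.64% from 4.5 to 5 kb inside. The other autosomes had differences between gap side and subdomain side of 18.5 and 16.9 percentage points at left edges, where chromosome V had 15.2 and 14.8. At right edges they had 24.2 and 20.6, where chromosome V had 17.8 and 17.6.

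**Figure D5:**
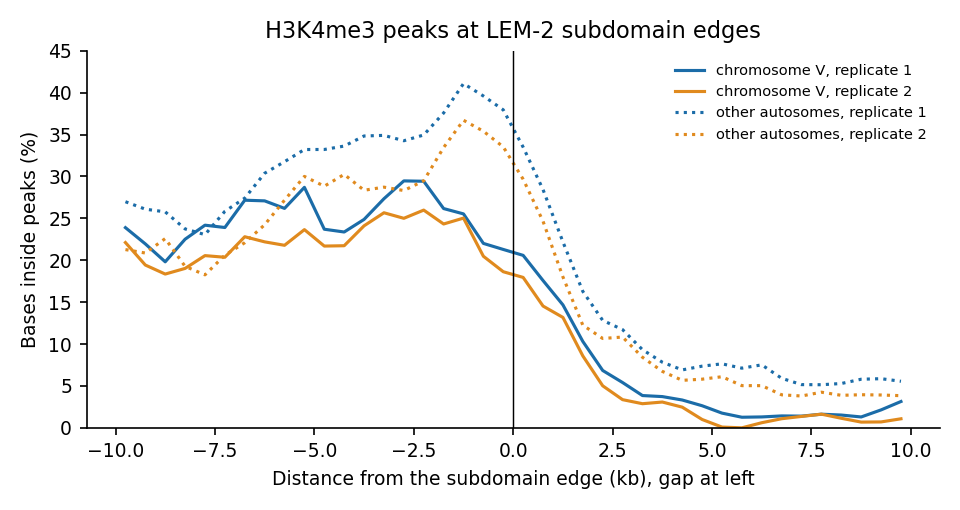
Percentage of bases inside H3K4me3 peaks in bins of 500 bp around LEM-2 subdomain edges, against the distance from the edge in kb, with the gap to the left of 0 and the subdomain to the right. Solid lines are chromosome V and dotted lines the other 4 autosomes, with replicate 1 in blue and replicate 2 in orange. On chromosome V replicate 1 coverage goes from 21.3% just outside the subdomain to 2.64% from 4.5 to 5 kb inside. Gaps shorter than the distance drop out. On chromosome V 178 edges remain in the gap bin next to the edge and 134 from 4.5 to 5 kb out, against 184 on the subdomain side. Each gap is counted from both of its edges.

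Since the build of the lists is not named, peaks of the arms were also moved along the chromosome in both directions against the small and medium gaps. Unmoved, peaks covered 23.8% of these gaps in the left arm and 19.4% in the right arm in replicate 1. The highest coverage was 23.9% at 250 bp in the left arm and 19.9% at −1000 bp in the right arm, and in replicate 2 it was at −750 bp in both arms. Moving the peaks by 20000 bp in either direction left 7.66% and 9.02% in the left arm and 5.75% and 5.32% in the right arm. An offset of about 1 kb between the lists and the subdomains therefore could not be resolved, and its effect on the edge profile and on the class densities was not tested.

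The 5 widest peaks of replicate 1 all had their middles in gaps. The widest, from 11945442 to 11961803 in the centre, was 16362 bp wide and overlapped a single replicate 2 peak of 9659 bp. The next, from 14496114 to 14509688 in the most covered large gap, was 13575 bp wide and was divided into 3 peaks in replicate 2. The peak from 6222426 to 6235715, 13290 bp wide, matched 2 peaks of replicate 2. The peak from 1569302 to 1582086 was 12785 bp wide and matched a single peak of 11300 bp, the widest on chromosome V in replicate 2. The peak from 3442484 to 3455245 was 12762 bp wide and matched 2 peaks of replicate 2. Its middle lay 0.718 kb from an edge of a small gap of only 5582 bp, so it extended into the subdomains on both sides. Subdomains held 9 of the 51 replicate 1 peaks of 5 kb or more (17.6%) and 63 of the 167 peaks under 2 kb (37.7%). In replicate 2 they held 2 of 25 and 59 of 175. The share of peaks in subdomains was thus lower among wide peaks in each list.

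Strong peaks were also found deep inside subdomains. High scores were common among all shared replicate 1 peaks of chromosome V, where 168 of 442 scored 3100 or more. At least 10 kb inside a subdomain, 88 replicate 1 peaks were shared with replicate 2, of which 38 had a score of exactly 3100 and 1 a higher score, the peak from 18966628 to 18968451 in the right arm. It lay 149 kb from the nearest edge, was 1824 bp wide in replicate 1 and 1913 bp in replicate 2, and had scores of 3107.31 and 1042.26. The leftmost of the tied peaks, from 102787 to 105817 and from 125466 to 129338, were in the subdomain at the left end, 98.4 kb and 121.5 kb from its nearest edge. Their scores were 3100 in replicate 1 and 1193.27 and 3135.76 in replicate 2. The score is 10 times the negative log10 of the authors' p-value. Since 3100 stands in for many values and scores on chromosome V ran up to 3198.29, these peaks are examples and not the strongest.

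The 5 longest stretches between neighbouring replicate 1 peaks all lay in the arms. The longest ran from 16966698 to 17514061, 547 kb inside the longest subdomain. The next ran from 18110319 to 18490288 (380 kb) and from 357114 to 723072 (366 kb), also wholly in subdomains. The fourth, from 17540019 to 17869640 (330 kb), and the fifth, from 2878220 to 3194301 (316 kb), each enclosed 1 gap and had 96.5% and 98.3% of their bases in subdomains. No replicate 2 peak had its middle in any of these 5 stretches. Toward the ends, the first peak began at 6972 in replicate 1 and 7032 in replicate 2. The last ended at 20848228 and 20848191, which left 71.2 kb at the right end without a peak in each list. On the other chromosomes the stretch after the last peak was at most 31.5 kb. At the left end of chromosome IV, however, the stretch before the first peak was 49.5 kb in replicate 1 and 50.5 kb in replicate 2.

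The replicates gave largely the same peaks on chromosome V. Of the 515 replicate 1 peaks, 442 were overlapped by at least 1 bp of a replicate 2 peak (85.8%, 82.5 to 88.7), and of the 469 replicate 2 peaks, 457 were overlapped (97.4%, 95.6 to 98.7). The other autosomes had 86.4% and 97.5%. For the 426 pairs in which a single peak of each list overlapped, the middles were a median of 49 bp apart, and 361 pairs (84.7%) lay within 250 bp. The replicate 1 peak was the wider in 364 pairs (85.4%), by a median of 167 bp over all pairs. Across these pairs of peaks, which are not independent replicates, Spearman's rho was 0.921 for scores and 0.919 for widths. Replicate 1 scores had a median of 1610.56 on chromosome V, and replicate 2 scores had a median of 587.52, so scores were not compared in size between lists.

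Peaks found only in replicate 1 were mostly narrow peaks with low scores. The 73 such peaks had a median width of 1644 bp and a median score of 117.38, compared with 2408.5 bp and 2042.17 for the shared peaks. Of the 38 replicate 1 peaks with scores of 50 to 100, 9 were overlapped (23.7%). The share was 39.5% for scores of 100 to 200, 75.4% for 200 to 500, and 99.0% for 500 to 3100. All 168 peaks at 3100 or more were overlapped. Of the unshared peaks 38.4% lay in subdomains, against 26.9% of the shared peaks, and on the other chromosomes these shares were 31.7% and 30.0%. The overlapped share was 87.4% in the left arm, 83.9% in the centre and 87.0% in the right arm. The widest unshared peaks, from 6478320 to 6482506 (4187 bp), from 13168384 to 13172055 (3672 bp) and from 11919614 to 11923007 (3394 bp), were all in gaps and had scores of 194.15, 305.16 and 238.74. Only 12 replicate 2 peaks had no counterpart, with a median score of 73.58, and 6 of these lay in subdomains.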

How the data were processed

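H3K4me3 ChIP-seq was performed on 2 replicates of mixed-stage N2 embryos. The authors deposited, for each replicate separately, a list of MACS peaks (p cutoff 1e-05) with positions and, as the score, the negative log10 of the p-value multiplied by 10. The submitters' processing notes name BWA, whereas the study's methods describe alignment of its ChIP-seq reads with MAQ to ce4. Which alignment the lists rest on, their build and the MACS version are not given in the sources used here. The lists hold no read depth. The study's methods give aligned reads for both H3K4me3 replicates, fewer for replicate 2, without saying whether the lists rest on them. Whether depth bears on the differences between the lists in width, score and unshared peaks was not tested. The 2 input libraries were not analysed here. Subdomains, gaps, arms and centres were read from the study's supplementary tables (ce4). Starts were converted to positions counted from 1, and peaks were assigned by their middle. Densities, widths and distances were computed with scipy 1.17.1, pandas 2.3.3 and numpy 2.4.6 under Python 3.11.15, and plotted with matplotlib 3.10.9. Intervals were exact Poisson, Clopper-Pearson or conditional ratio intervals, and the scripts were checked on simulated data. Replicate 1 gives the main value, as in the study. Regions were named by rule: the large and extra large gaps, the 3 longest subdomains, the medium and small gaps with most peaks and the 3 longest with none, the 5 widest peaks, the 5 longest stretches, the 3 densest and 3 sparsest windows, the 3 highest-scoring shared peaks at least 10 kb inside a subdomain and the 3 widest unshared peaks. The members, regions and lists were chosen with earlier results of these data known. Alternatives were replicate 2 alone, shared peaks, a score minimum of 100, merging within 1 kb, counting bases, a 50% reciprocal overlap, and other definitions of centre, edge, spacing and reference chromosomes.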

Additional observations from a re-analysis of the deposited data

How the results depend on the processing

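Depth limits how firmly peak number, width and spacing can be stated, because 2 lists of unequal depth give the only replicate error, and the score ceiling limits any ranking of strong peaks. No paired analysis was possible because the libraries form a single group. Besides leaving out a replicate, 33 alternative values were computed over 8 results. Of these, 16 moved by less than 1 SD over the replicates or, for the overlapped share, stayed within its 95% interval. The other 17 moved by more. Reversal was defined only for the density ratios, as a move to the other side of 1, and 0 of these reversed. The remaining results could not be called reversed. Leaving out each replicate, which leaves the value of the other, gave 22.4 to 24.6 peaks per Mb, 0.565 to 0.570 of the other autosomes' density, 1.85 to 1.96 times the arm density in the centre, 27.3% to 28.5% of peaks in subdomains, 5.00 to 5.62 times the subdomain density in gaps, a median width of 2151 to 2335 bp and a median spacing of 19812.5 to 23052.5 bp. With shared peaks only, these were 21.1 peaks per Mb, 0.566 of the other autosomes, 26.9% in subdomains, 5.72 times in gaps and 24147 bp of spacing. With scores of at least 100 there were 22.8 peaks per Mb and 27.5% in subdomains. Counted in bases, chromosome V had 0.563 of the other autosomes, the centre 2.05 times the arms, subdomains 24.7% and gaps 6.14 times the subdomains. Relative to the other autosomes the value was 0.600 with peaks less than 1 kb apart merged and 0.543 against their median. The centre ratio was 1.87 with the extra large gap as the centre, the subdomain share was 44.1% without the extra large gap, the spacing was 23054.5 bp between middles, and 97.4% of replicate 2 peaks were overlapped by replicate 1.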
